A study of Mus musculus with 54 samples.

Results

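The 40 genes described here encode enzymes that break down amino acids, together with a regulator of that breakdown and several enzymes of arginine, creatine and carnitine metabolism. They were taken by gene name from the 55487 rows of the deposited expression table, where each of the 40 had a row. RNA had been sequenced from early proximal tubules, which receive the filtrate as it leaves the glomerulus, cut by laser capture from mouse kidney sections after staining for the glucose transporter SGLT2. Each sample pooled 70 to 80 such tubules. The mice were DBA males aged 14 weeks, either diabetic through the Akita allele (Ins2 Akita/+, a misfolding insulin that causes insulin-deficient diabetes) or non-diabetic littermates (Ins2+/+). Within each background Sglt1, the other tubular glucose transporter, was either knocked out (Sglt1-/-) or wild type (Sglt1+/+).

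For 2 weeks the mice received dapagliflozin, an SGLT2 inhibitor, at 10 mg per kg of diet, semaglutide, a GLP-1 receptor agonist injected under the skin at 3 nmol per kg body weight per day, or vehicle. The Akita mice gave 6 knockout and 5 wild-type samples with dapagliflozin, 5 wild-type samples with semaglutide, and 6 knockout and 6 wild-type samples with vehicle. The non-diabetic mice gave 6 knockout and 4 wild-type samples with dapagliflozin, and 5 knockout and 5 wild-type samples with vehicle. Of the 54 labelled samples 48 had values, and the other 6 were not analysed here. Which animal a sample came from is not in its labels, so p-values measure only the spread between these samples, part of which may be technical.

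Proximal tubule cells take up nearly all filtered amino acids and oxidise part of them in their mitochondria. Branched-chain amino acids are transaminated, decarboxylated by the BCKDH complex and carried on through acyl-CoA intermediates, while tyrosine, tryptophan, lysine, proline and glycine each have a pathway of their own. The tubule also makes products from amino acids for the rest of the body, among them arginine from citrulline by way of Ass1 and the creatine precursor guanidinoacetate by way of Gatm.

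Only 2 of the 40 genes, of which 39 were tested, passed the test of any comparison. They were Aass and Hgd, each higher in dapagliflozin-treated than in vehicle-treated Akita tubules averaged over Sglt1 genotypes. Of all genes tested, 0.816% passed in that comparison. Neither gene passed under other scalings of the data, as given below. Aass encodes the bifunctional enzyme that opens mitochondrial lysine breakdown by way of saccharopine, and Hgd encodes homogentisate dioxygenase, which opens the aromatic ring in tyrosine breakdown. Their promoters are shown because theirs were the only calls. Each runs from 250 bases before to 50 bases after the RefSeq transcription start in GRCm38.p6, at chr6:23132937-23133236 on the minus strand for Aass and at chr16:37579903-37580202 on the plus strand for Hgd. Capitals mark the nuclear receptor half-site AGGTCA and the motif CCAAT, each on either strand (TGACCT and ATTGG on the other).
Aass: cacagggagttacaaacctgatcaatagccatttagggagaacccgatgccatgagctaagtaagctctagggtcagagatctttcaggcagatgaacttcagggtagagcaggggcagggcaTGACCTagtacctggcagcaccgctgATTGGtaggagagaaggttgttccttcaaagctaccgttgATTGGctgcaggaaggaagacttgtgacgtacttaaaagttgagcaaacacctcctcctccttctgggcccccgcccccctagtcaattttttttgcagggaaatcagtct
Hgd: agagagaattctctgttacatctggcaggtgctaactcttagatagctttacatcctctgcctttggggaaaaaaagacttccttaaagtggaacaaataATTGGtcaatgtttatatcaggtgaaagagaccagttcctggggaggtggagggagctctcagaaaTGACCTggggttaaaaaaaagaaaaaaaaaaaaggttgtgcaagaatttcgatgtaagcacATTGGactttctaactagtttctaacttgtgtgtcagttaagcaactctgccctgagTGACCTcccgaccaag
The Aass window held 1 AGGTCA and 2 CCAAT matches, and the Hgd window 2 of each. The Hgd window also held 1 TATAAA match, which is not capitalised, and the Aass window held 0. Of 32851 RefSeq promoters of the same length, 16.3% held AGGTCA and 37.4% held CCAAT, against 11 and 20 of the 35 enzyme promoters that were in the RefSeq table. The 35 were reduced to 1 promoter per gene, on a main chromosome and nearest the annotated gene start. The 32851 were limited neither in this way nor to expressed genes, so the shares are not like for like. TATAAA was present in 13.6% of all promoters and 3 of the 35, GTTAAT in 7.10% and 2, TGTTTAC in 3.65% and 2, and TGACGTCA in 1.79% and 0. A match describes the letters in these windows and nothing about the binding of a factor.

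Levels are given as TPM, a measure of transcript abundance scaled by transcript length and to the same sum in every library. All 8 early proximal tubule markers, Slc5a2 among them, were above 0 in every library. Slc5a1, the gene of SGLT1, did not exceed 0.123 TPM in any of 23 knockout libraries, while 25 wild-type libraries ranged from 0.814 to 4.29 TPM. Between 8465 and 11419 genes reached a TPM of 1. The 4 libraries below 9000 genes were all Akita vehicle samples, wild-type samples 2 and 5 and knockout samples 5 and 6. Nuclear protein-coding RNA, summed here without Lars2, made up 5.98% to 14.1% of TPM. With unchanged proportions among such genes, a low share lowers the TPM of each in that library. The gene with the highest mean level alone took 36.8% to 64.4% of TPM, and mitochondrial RNA took 15.6% to 32.6%. Markers of the late proximal tubule (S3), 6 genes of which Acy3 supplied most, summed to 171 to 886 TPM. Acy3 averaged 415 TPM and the next, Slc7a13, 32.6 TPM, so this sum is largely the level of Acy3. Slc5a1, the gene knocked out, is 1 of the 6. It enters every S3 marker count below, those with knockouts included. Markers of immune cells summed to 4.56 to 178 TPM, and those of the distal convoluted tubule to 3.34 to 243 TPM.

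The enzymes spanned more than 4 orders of magnitude in mean level, but that span rests on Arg2, which was near 0. Without Arg2 the means ran from 0.896 TPM (Kynu) to 275 TPM (Ass1). Together they summed to 792 to 2006 TPM per library, which was 1.10% to 1.53% of nuclear protein-coding RNA. Ass1, argininosuccinate synthase, was the highest at a mean of 275 TPM over the 48 libraries, which placed it at the 99.6th percentile of the 12742 genes tested. Sardh, the mitochondrial sarcosine dehydrogenase, followed at 138 TPM, then proline dehydrogenase Prodh at 120 TPM, the guanidinoacetate-forming Gatm at 102 TPM and the lysine pathway dehydrogenase Aldh7a1 at 42.7 TPM. At the other end stood Arg2, the mitochondrial arginase, which was listed at 0 in 45 of 48 libraries and reached 0.172 TPM at most. Arg2 is known from the straight part of the proximal tubule. It was the only one of the 40 that did not reach a TPM of 1 in at least 5 libraries, so 39 genes were tested. Kynu (kynureninase) averaged 0.896 TPM and was listed at 0 in 2 libraries. The mitochondrial branched-chain aminotransferase gene Bcat2 averaged 3.15 TPM, Bckdk (the kinase that inactivates the BCKDH complex) 3.23 TPM and Shmt1 (cytosolic serine hydroxymethyltransferase) 4.58 TPM. Several of the genes overlap a neighbour on the opposite strand, Kmo with Fh1, Pcca with Ggact, Prodh with Dgcr6, Aldh7a1 with Phax and Shmt1 with Smcr8. Hpd likewise overlaps Psmd9 (mean 2.74 TPM), and Gstz1 overlaps Pomt2 (1.81 TPM). The library kit keeps strand, but whether the counting used it is not given in the sources used here. Arg2, which was near 0, likewise overlaps Vti1b (7.96 TPM). The overlaps are between whole gene spans, and whether they touch exons was not tested. How far the levels of these genes are uncertain is therefore unknown.

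**Figure D1:**
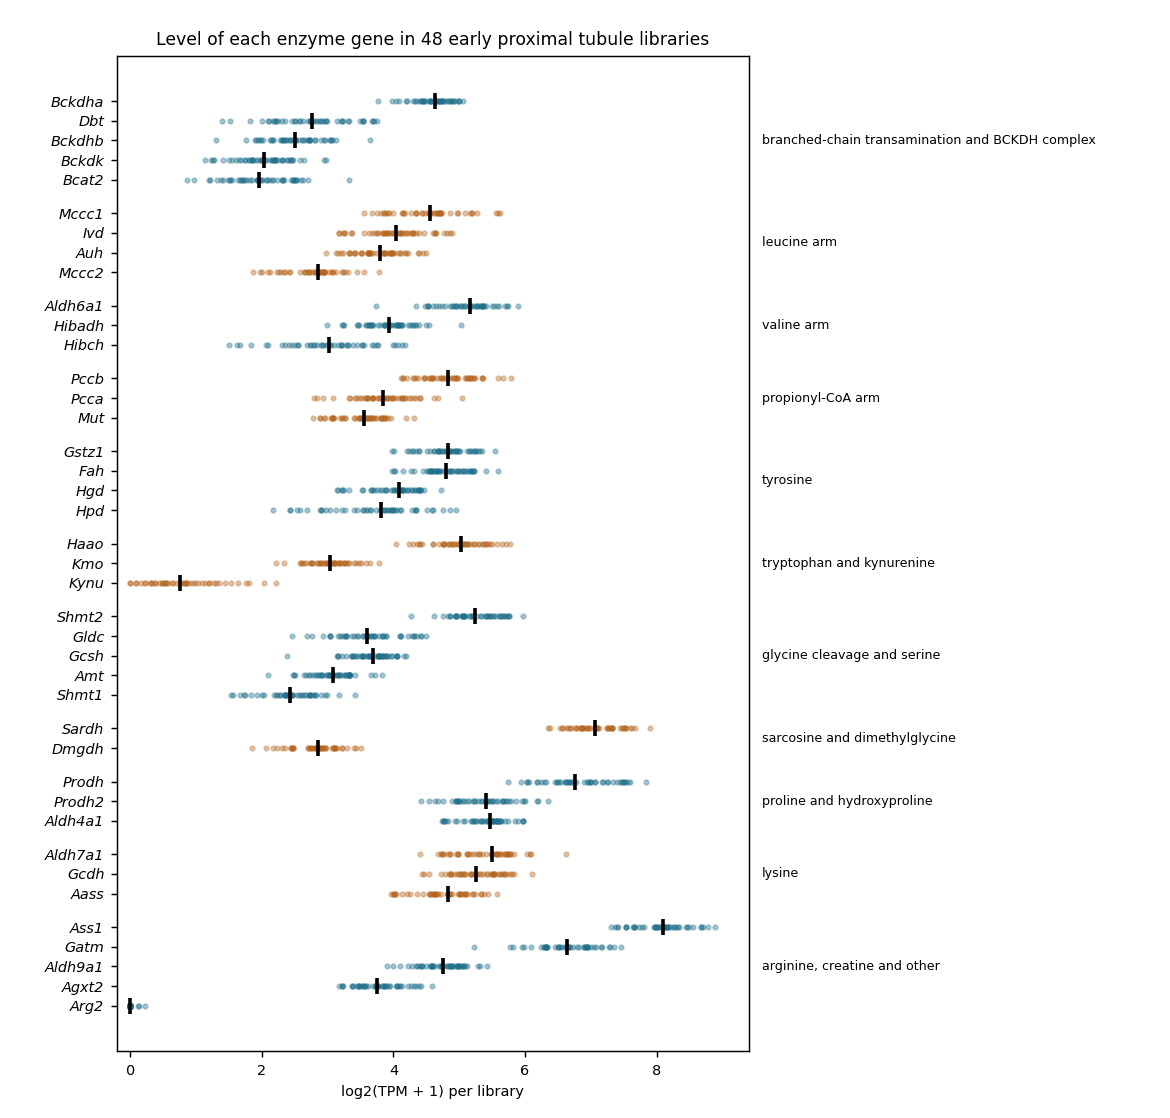
Level of each of the 40 genes, grouped by pathway, as log2(TPM + 1) on the horizontal axis; each point is 1 of 48 libraries and each bar the median. Ass1, Sardh, Prodh and Gatm lie to the right of all others by mean TPM, and Arg2 lies at 0 in all but 3 libraries.

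By pathway, the arginine, creatine and related enzymes summed to 417 ± 106 TPM (SD, n = 48 libraries), with the aminotransferase gene Agxt2 at 13.1 TPM and the carnitine pathway dehydrogenase gene Aldh9a1 at 26.2 TPM beside Ass1 and Gatm. The proline enzymes summed to 204 ± 57.5 TPM, with Aldh4a1, the dehydrogenase that completes the pathway, at 42 TPM. The tyrosine enzymes summed to 83.4 ± 21.5 TPM, led by the isomerase gene Gstz1 at 27.7 TPM and Fah at 27.4 TPM. The leucine and valine arms were alike in sum, at 58.7 ± 16.2 and 56.8 ± 15.7 TPM, with the hydratase gene Auh at 13 TPM and Ivd at 16.2 TPM in the leucine arm and Aldh6a1 at 34.5 TPM in the valine arm. The kynurenine enzymes had the lowest sum, 40.5 ± 10.6 TPM, of which Haao made up 32.2 TPM.

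Genes whose proteins work in 1 complex or in successive steps did not share a level. Bckdha, the alpha subunit of the BCKDH decarboxylase, averaged 23.5 TPM, and its partner subunit Bckdhb 4.86 TPM. Bckdha was the higher in 48 of 48 libraries, at a median ratio of 5.13 (2.59 to 10.0). Dbt, the lipoyl transacylase core of the complex, averaged 6.33 TPM, a median of 3.94 times below Bckdha. In 3-methylcrotonyl-CoA carboxylase of leucine breakdown, the biotin-carrying subunit gene Mccc1 exceeded Mccc2 in 48 of 48 libraries at a median ratio of 3.80. Propionyl-CoA carboxylase had Pccb above Pcca in 47 of 48 libraries at a median ratio of 2.08. Within the glycine cleavage system, by contrast, the decarboxylase gene Gldc and the lipoyl carrier gene Gcsh were near parity, with a median ratio of 0.942 and Gldc the higher in 19 of 48 libraries.

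Isoenzymes and neighbouring steps also differed in TPM. The mitochondrial Shmt2 exceeded the cytosolic Shmt1 at a median ratio of 8.49, and Sardh exceeded Dmgdh, which removes the methyl group before it, at 21.2 (16.2 to 34.6). Proline dehydrogenase Prodh exceeded hydroxyproline dehydrogenase Prodh2 at 2.89. In the kynurenine pathway Haao, which makes the quinolinate precursor, exceeded Kmo at 4.41, and Kmo exceeded Kynu at 10.3 in the 46 libraries with a Kynu value above 0. Each of these orders held in 48 of 48 libraries. In tyrosine breakdown Fah, the final hydrolase, exceeded Hgd at a median ratio of 1.77, and Hgd exceeded Hpd, the dioxygenase before it, in 35 of 48 libraries.

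**Figure D2:**
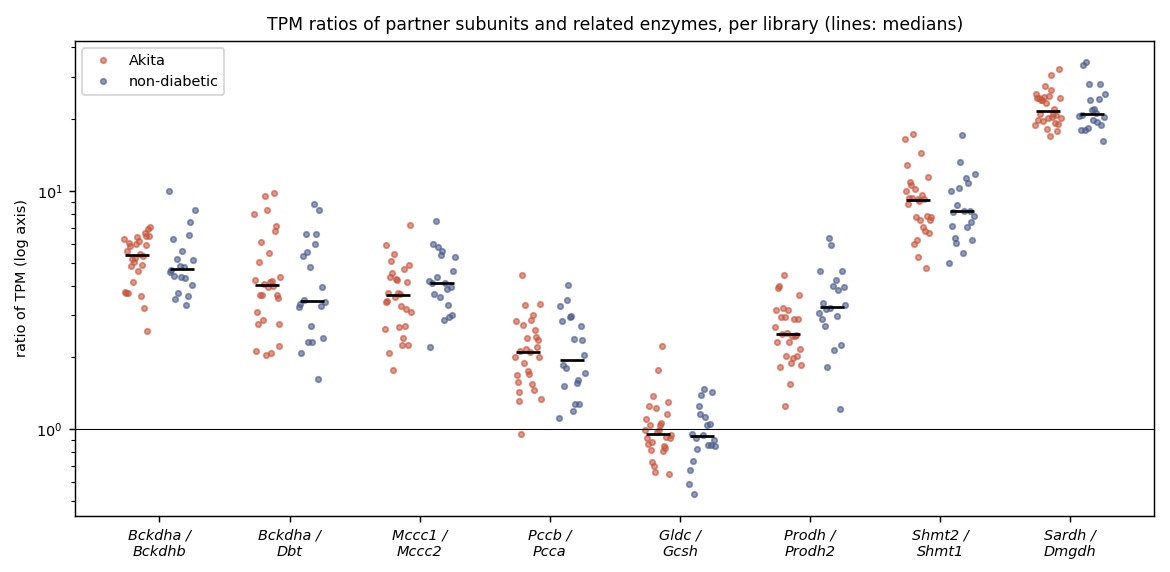
Ratio of the TPM of paired subunits or related enzymes per library, on a log axis, for Akita libraries (left of each pair, red) and non-diabetic libraries (right, blue); bars are medians. All points lie above 1 for 6 of the 8 ratios, and Gldc over Gcsh scatters around 1.

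Within groups the coefficient of variation ran from 19.6% for Bckdha to 48.6% for Hpd, 49.9% for Bcat2 and 87.1% for Kynu among the tested genes. Changes below are log2 fold changes of TPM + 1 from a limma model over all 9 groups, given with their standard error, and a gene was called at a Benjamini-Hochberg adjusted p under 0.05 over 12742 genes. The scale understates changes of low genes such as Kynu. In bulk samples of this kind, fewer cells of a type and less RNA per cell cannot be told apart.

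Dapagliflozin in Akita tubules, averaged over both genotypes, gave the only calls. Aass and Hgd rose, 2 of the 39 tested, where 0.816% of all tested genes were called. The other enzymes of lysine and of tyrosine breakdown did not pass. Aass stood at 27.6, 23.6, 32.7, 23.6, 39.3 and 36.0 TPM in the 6 Akita knockout dapagliflozin libraries and at 31.7, 28.8, 27.6, 28.1 and 39.1 TPM in the 5 wild-type ones. In the Akita vehicle libraries it stood at 31.2, 20.8, 28.1, 15.2, 17.4 and 18.1 TPM in knockouts and at 22.4, 14.7, 30.4, 16.6, 15 and 15 TPM in wild types. All 11 dapagliflozin libraries lay above the vehicle median of 17.7 TPM, but 3 vehicle libraries reached the dapagliflozin range, so the groups overlapped. The mean was 30.7 ± 5.56 TPM (SD, n = 11) with dapagliflozin and 20.4 ± 6.23 TPM (SD, n = 12) with vehicle, a log2 fold change of 0.60 ± 0.15 (limma, adjusted p = 0.0410).

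Hgd stood at 16.7, 13.9, 20.3, 12.5, 25.5 and 20.3 TPM in Akita knockouts with dapagliflozin and at 16.1, 15.2, 17.8, 13.2 and 19 TPM in Akita wild types with dapagliflozin. With vehicle it stood at 12, 16.4, 15.5, 7.97, 8.35 and 10.5 TPM in Akita knockouts and at 15.2, 7.80, 15, 11.7, 8.97 and 10.6 TPM in Akita wild types. Again all 11 dapagliflozin libraries were above the vehicle median, here 11.1 TPM, and the ranges overlapped. The mean was 17.3 ± 3.83 TPM (SD, n = 11) with dapagliflozin and 11.7 ± 3.16 TPM (SD, n = 12) with vehicle, a log2 fold change of 0.54 ± 0.14 (limma, adjusted p = 0.0472). Neither call held without the 4 libraries of fewest genes, where Aass was at 0.47 (limma, adjusted p = 0.701) and Hgd at 0.38 (adjusted p = 0.788), or when TPM was rescaled by the median-of-ratios method, where Aass was at 0.35 (limma, adjusted p = 0.142) and Hgd at 0.30 (adjusted p = 0.152). Each call also ended in 15 of the 23 fits that left out 1 library, with adjusted p up to 0.0981 for Aass and 0.122 for Hgd. Both calls remained without each of Akita wild-type dapagliflozin sample 1, knockout dapagliflozin samples 2 and 4, wild-type vehicle samples 1 and 3, and knockout vehicle samples 1, 2 and 3.

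**Figure D3:**
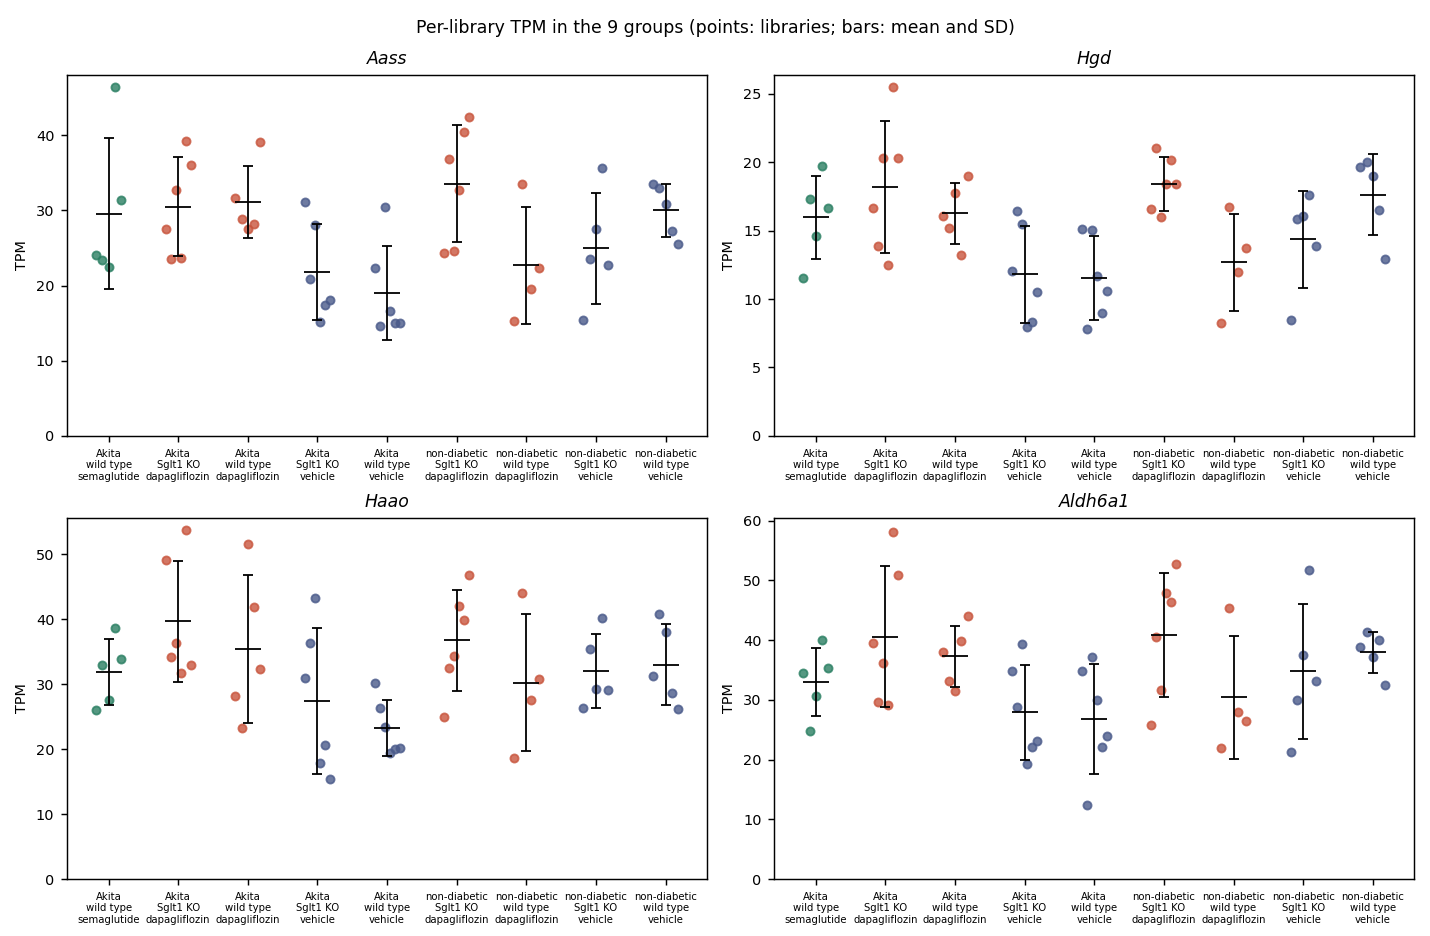
TPM of Aass, Hgd, Haao and Aldh6a1 in every library of the 9 groups (points), with group means and SD (bars); treated groups stand left of vehicle, knockout left of wild type and Akita left of non-diabetic. In Akita mice all 11 dapagliflozin libraries lie above the vehicle median for each of the 4 genes, and the ranges overlap in each.

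No other enzyme was called. Haao ran from 23.2 to 53.7 TPM (median 34.2) over the 11 Akita dapagliflozin libraries and from 15.4 to 43.2 TPM (median 22.0) over the 12 Akita vehicle libraries, a difference of 0.57 ± 0.15 (limma, adjusted p = 0.0560). Aldh6a1, the methylmalonate semialdehyde dehydrogenase of valine breakdown, ran from 29.1 to 58.2 TPM (median 38.0) with dapagliflozin and from 12.3 to 39.4 TPM (median 26.4) with vehicle, a difference of 0.53 ± 0.16 (limma, adjusted p = 0.0811). Hibch, which releases hydroxyisobutyrate from its CoA in the same pathway, had the largest difference of the 39, 0.62 ± 0.23, but with a wide spread (3.95 to 15.4 TPM with dapagliflozin, 2.09 to 8.94 TPM with vehicle; limma, adjusted p = 0.156). In the leucine arm Ivd, isovaleryl-CoA dehydrogenase, differed by 0.53 ± 0.18 (limma, adjusted p = 0.121), with 10 of 11 dapagliflozin libraries above the vehicle median. The 3 valine genes Hibch, Hibadh and Aldh6a1 were all higher with dapagliflozin at a median difference of 0.53, and with median-of-ratios scaling as well. The 4 leucine genes were higher at a median of 0.33 and the 4 tyrosine genes at 0.41, except that Auh and Hpd turned to -0.01 and -0.02 with that scaling.

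The shared upper steps of branched-chain breakdown had smaller differences in value. Bckdha differed by 0.17 ± 0.13, Bckdhb by 0.21 ± 0.17, Dbt by 0.22 ± 0.24 and Bckdk by 0.06 ± 0.18, and with Bcat2 the 5 had a median of 0.17. With median-of-ratios scaling all 5 were below 0. Of the propionyl-CoA enzymes, the mutase gene Mut differed by 0.39 ± 0.15, Pcca by 0.28 ± 0.19 and Pccb by 0.09 ± 0.17. In lysine breakdown Aldh7a1 and Gcdh, which act after Aass, differed by 0.17 ± 0.19 and 0.27 ± 0.17.

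None of the 4 most abundant enzymes was called. Ass1 ran from 169 to 439 TPM (median 277) in the Akita dapagliflozin libraries and from 165 to 406 TPM (median 251) in the Akita vehicle libraries, a difference of 0.15 ± 0.17 (limma, adjusted p = 0.663). Gatm ran from 61.3 to 155 TPM (median 119) with dapagliflozin and from 53.4 to 175 TPM (median 91.3) with vehicle, a difference of 0.23 ± 0.19 (adjusted p = 0.548). Sardh ran from 116 to 237 TPM (median 159) with dapagliflozin and from 80.1 to 203 TPM (median 116) with vehicle, a difference of 0.36 ± 0.15 (limma, unadjusted p = 0.0214, adjusted p = 0.211), with 11 of 11 dapagliflozin libraries above the vehicle median. Prodh ran from 65.9 to 188 TPM (median 101.4) with dapagliflozin and from 64.4 to 182 TPM (median 92) with vehicle, a difference of 0.25 ± 0.21 (adjusted p = 0.548). The groups overlapped for each of these 4 genes. With median-of-ratios scaling Sardh was at 0.10, while Ass1, Gatm and Prodh were at -0.11, -0.03 and -0.01.

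At the other extreme, hydroxyproline dehydrogenase Prodh2 was at 20.5 to 72.6 TPM with dapagliflozin and 22.4 to 63.2 TPM with vehicle, a difference of -0.13 ± 0.18 (limma, adjusted p = 0.736). Shmt1 differed by -0.08 ± 0.18, at a median of 4.15 TPM with dapagliflozin and 4.24 TPM with vehicle. Bcat2 differed by -0.06 ± 0.21, at a median of 2.86 TPM with dapagliflozin and 3.16 TPM with vehicle. All 3 ranges overlapped between the groups.

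Most of the table lay on the same side as these enzymes. Of the 39, 36 were higher with dapagliflozin in Akita, at a median of 0.28, and so were 80.8% of all genes tested, at a median of 0.17. At an unadjusted p under 0.05, 15 of the 39 were higher and 0 lower, where 16.8% of all genes were higher at that level. With median-of-ratios scaling the median of all genes was -0.01 and that of the 39 was 0.04. Nuclear protein-coding RNA made up a median of 10.4% of TPM in the 11 dapagliflozin libraries and 8.93% in the 12 vehicle libraries. The sum of the S3 markers was 408 to 773 TPM with dapagliflozin and 171 to 542 TPM with vehicle. Of these markers 6 of 6 were higher, 1 of them called. The early proximal tubule markers were higher in 7 of 8, with 0 called, at a median of 0.21. No tested marker of the thick ascending limb, distal convoluted tubule, collecting duct, podocytes, endothelium, fibroblasts and pericytes, immune cells or injured tubule was called in this comparison. The part of S3 cells, of early proximal tubule cells and of RNA composition in the rise of Aass and Hgd was not tested.

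Taken separately, neither genotype gave a call. In Akita knockouts dapagliflozin differed from vehicle by 0.59 ± 0.20 for Hgd and 0.48 ± 0.21 for Aass, and 0 of the 39 were called (0% of all genes). At an unadjusted p under 0.05, 7 were higher and 0 lower, where 6.96% of all genes were higher. In Akita wild types the differences were 0.49 ± 0.20 for Hgd and 0.72 ± 0.22 for Aass, and again 0 of 39 were called (0% of all genes), with 9 higher at an unadjusted p under 0.05 (9.68% of all genes). The median over the 39 was 0.22 in knockouts and 0.33 in wild types, beside 0.15 and 0.19 over all genes. With median-of-ratios scaling the median over the 39 was -0.0009 in knockouts and 0.06 in wild types. The difference in drug response between knockout and wild-type Akita mice was tested directly and 0 of 39 were called (0% of all genes), with 0 also at an unadjusted p under 0.05.

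Other genes of the same pathways were examined alongside. Of 68 such genes listed, 65 had a row and 49 were tested. With dapagliflozin in Akita, 3 of the 49 were called, all higher, where 0.816% of all genes were called. At an unadjusted p under 0.05, 21 of the 49 were higher, beside 16.8% of all genes, and 45 of 49 were higher in value, beside 80.8% of all genes. Acat1, the thiolase that ends isoleucine and ketone breakdown, rose by 0.60 ± 0.15 (limma, adjusted p = 0.0346), at 29.4 ± 5.07 TPM with dapagliflozin and 19.5 ± 5.66 TPM with vehicle. Hykk, hydroxylysine kinase, rose by 0.59 ± 0.15 (adjusted p = 0.0467). Etfdh, which passes electrons from acyl-CoA, sarcosine and dimethylglycine dehydrogenases to the respiratory chain, rose by 0.58 ± 0.14 (adjusted p = 0.0309). In each of the other comparisons 0 of the 49 were called, with at most 13 in 1 direction at an unadjusted p under 0.05. That count was reached by lower genes in Akita against non-diabetic tubules, where 18.1% of all genes were lower at that level, and by positive interactions of dapagliflozin with diabetes, where 14.4% of all genes were positive. Of the 3, Hykk alone was also called with median-of-ratios scaling, at 0.34 (limma, adjusted p = 0.0300).

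Semaglutide was given to Akita wild-type mice alone, and no enzyme was called against vehicle. The capture number, the number in a sample's title, ran from 88 to 99 in the semaglutide libraries. In Akita wild types it ran from 1 to 82 with vehicle and from 4 to 78 with dapagliflozin. What the number stands for is not in the labels, and the drug cannot be told apart from that order. Hibch stood at 12.5, 6.15, 7.03, 16.4 and 15 TPM in the 5 semaglutide libraries and at 2.17 to 8.66 TPM (median 4.91) in the 6 vehicle libraries. Every semaglutide library was above the vehicle median and the ranges overlapped, for a difference of 0.99 ± 0.34 (limma, adjusted p = 0.804). Hpd, hydroxyphenylpyruvate dioxygenase, stood at 19.4, 11.7, 13.5, 13.3 and 16.3 TPM with semaglutide and at 6.54 to 12.3 TPM (median 7.73) with vehicle, a difference of 0.78 ± 0.39 (adjusted p = 0.845). Aass stood at 24.1, 23.4, 22.5, 46.4 and 31.4 TPM with semaglutide and at 14.7 to 30.4 TPM (median 15.8) with vehicle, a difference of 0.61 ± 0.22 (adjusted p = 0.823).

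Aldh7a1 was at 33.7, 30.7, 33.8, 41.5 and 51.6 TPM with semaglutide and at a median of 42.7 TPM with vehicle, a difference of -0.09 ± 0.27. Bcat2 was at 2.61, 2.28, 0.950, 2.85 and 4.54 TPM with semaglutide, against a vehicle median of 2.85 TPM. Shmt2 was at 29.9, 29.9, 30.1, 41.3 and 39.3 TPM with semaglutide, against a vehicle median of 32.6 TPM. The ranges overlapped for all 3. In all, 35 of 39 were higher with semaglutide at a median of 0.24, beside 70.7% of all genes at a median of 0.13. That median was 0.06 with median-of-ratios scaling and ran from 0.14 to 0.315 when 1 library was left out. The S3 markers were higher with semaglutide in 6 of 6, with 0 called, at a median of 0.66. Their sum was 223 to 569 TPM with semaglutide and 171 to 453 TPM with vehicle. The early proximal tubule markers were higher in 5 of 8, with 0 called, at a median of 0.37. The part of either set in these differences was not tested. None of the 39 was called (0% of all genes), and 4 were higher at an unadjusted p under 0.05, namely Hibch, Aass, Hgd and Ivd (5.2% of all genes).

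When semaglutide was set directly against dapagliflozin in Akita wild types, 0 of 39 were called (0% of all genes) and 0 had an unadjusted p under 0.05. Both drugs were compared with the same 6 vehicle libraries, so their values are given side by side without a measure of likeness. Hibch differed from vehicle by 0.99 with semaglutide and 0.57 with dapagliflozin. Aass differed from vehicle by 0.61 with semaglutide and 0.72 with dapagliflozin.

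No enzyme was called between Akita and non-diabetic tubules. Averaged over genotypes and with vehicle only, 37 of 39 were lower in Akita tubules with TPM as deposited, at a median of -0.20, beside a median of -0.20 for all genes, of which 15.6% were higher. Of the 39, 0 were called (0.557% of all genes), and 9 were lower at an unadjusted p under 0.05 (18.1% of all genes). Hpd ran from 4.36 to 16.1 TPM (median 8.43) in the 12 Akita vehicle libraries and from 4.82 to 23.3 TPM (median 15) in the 10 non-diabetic vehicle libraries. All but 1 Akita library lay below the non-diabetic median, for a difference of -0.49 ± 0.28 (limma, adjusted p = 0.322). Prodh ran from 64.4 to 182 TPM (median 92) in Akita and from 60.2 to 193 TPM (median 136) in non-diabetic tubules, a difference of -0.48 ± 0.21 (adjusted p = 0.221). Mccc1 differed by -0.47 ± 0.20, at medians of 16.6 TPM in Akita and 24.5 TPM in non-diabetic tubules. The ranges overlapped for all 3 genes. With median-of-ratios scaling the median over the 39 was 0.04, against -0.20 as deposited.

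The smallest p-values of the 39 belonged to Hgd, at -0.43 ± 0.14 (limma, adjusted p = 0.125) and Aass, at -0.43 ± 0.16 (adjusted p = 0.150). Hgd was called in 1 fit, that without non-diabetic knockout vehicle sample 1. The diabetes and dapagliflozin comparisons share the Akita vehicle libraries, so a value there enters both. The only enzymes higher in Akita were Kynu, at 0.303 to 2.12 TPM in Akita and 0 to 1.90 TPM in non-diabetic tubules (0.29 ± 0.22), and Pccb, at 16.4 to 40.2 TPM in Akita and 17.5 to 36.2 TPM in non-diabetic tubules (0.07 ± 0.17). The S3 markers were lower in Akita in 6 of 6, 3 of them called. Their sums were 171 to 542 TPM in Akita vehicle and 489 to 708 TPM in non-diabetic vehicle libraries. The early proximal tubule markers were lower in 7 of 8, with 0 called, at a median of -0.20. The part of either set in these differences was not tested.

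By genotype, Akita knockouts differed from non-diabetic knockouts at a median of -0.14 over the 39, beside -0.24 over all genes, with 0 called (0% of all genes) and 0 at an unadjusted p under 0.05. The sign of that median turned with median-of-ratios scaling, to 0.18, and it ran from -0.25 to -0.0272 when 1 library was left out. Akita wild types differed from non-diabetic wild types at a median of -0.31, beside -0.15 over all genes, and at -0.11 with median-of-ratios scaling. That median ran from -0.41, without Akita vehicle sample 1, to -0.19, without Akita vehicle sample 2. Of the 39, 0 were called (0.0235% of all genes) and 9 were lower at an unadjusted p under 0.05 (7.01% of all genes). Aass was at 14.7 to 30.4 TPM in Akita wild types and at 33.6, 32.9, 30.8, 27.2 and 25.5 TPM in non-diabetic wild types, a difference of -0.67 ± 0.22 (limma, adjusted p = 0.425). The test of whether diabetes acted differently in knockouts and wild types called 0 of 39 (0% of all genes), with 0 also at an unadjusted p under 0.05.

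**Figure D4:**
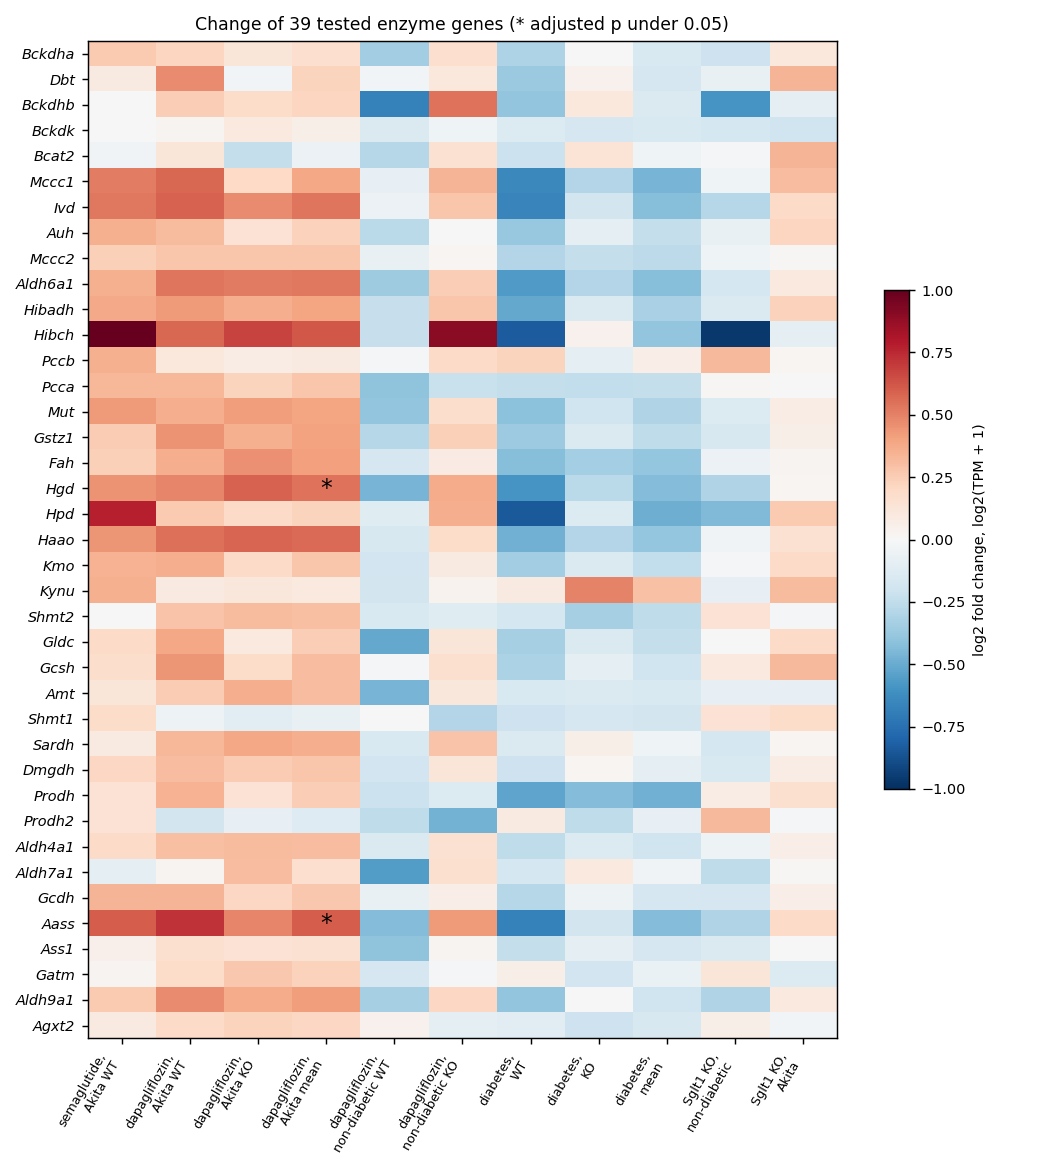
Log2 fold change of log2(TPM + 1) for the 39 tested genes (top to bottom by pathway) in 11 comparisons; red is higher and blue lower in the treated, Akita or knockout group, and an asterisk marks an adjusted p under 0.05. The 2 asterisks are Aass and Hgd in Akita with dapagliflozin, averaged over genotypes.

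Dapagliflozin in non-diabetic tubules gave no call. Averaged over genotypes, 28 of 39 were lower with the drug at a median of -0.05, beside -0.10 over all genes, but the median turned to 0.07 with median-of-ratios scaling. It ran from -0.15 to 0.0094 when 1 library was left out, the lowest without wild-type dapagliflozin sample 3 and the highest without wild-type dapagliflozin sample 2. Of the 39, 0 were called (0% of all genes) and 0 had an unadjusted p under 0.05. Hibch was at 4.5 to 17 TPM (median 9.24) with dapagliflozin and 1.84 to 15.8 TPM (median 7.24) with vehicle, a difference of 0.34 ± 0.25 (limma, adjusted p = 0.979). Mccc1 differed by 0.13 ± 0.21 and Hpd by 0.12 ± 0.29. Prodh2 was at 24.5 to 47.3 TPM with dapagliflozin and 30.0 to 80.4 TPM with vehicle, a difference of -0.37 ± 0.20, Pcca differed by -0.31 ± 0.21 and Aldh7a1 by -0.20 ± 0.20.

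The 2 genotypes are given apart. In non-diabetic knockouts 31 of 39 were higher with dapagliflozin at a median of 0.15 (all genes -0.06), and at 0.21 with median-of-ratios scaling. That median ran from 0.0342, without vehicle sample 1, to 0.24, without vehicle sample 5, when 1 library was left out. The early proximal tubule markers were higher in 6 of 8 and the S3 markers in 4 of 6. Of the 39 enzymes, 0 were called (0.00785% of all genes) and Hibch and Bckdhb were higher at an unadjusted p under 0.05 (0.989% of all genes). In non-diabetic wild types 37 of 39 were lower at a median of -0.19 (all genes -0.13), and at -0.04 with median-of-ratios scaling. That median ran from -0.41, without dapagliflozin sample 3, to -0.12, without vehicle sample 3. The early proximal tubule markers were lower in 8 of 8 at a median of -0.41 and the S3 markers in 6 of 6 at a median of -0.34, and 0 of either were called; their part in these differences was not tested. Of the 39 enzymes, 0 were called (0% of all genes) and Bckdhb, Amt and Hgd were lower at an unadjusted p under 0.05 (3.34% of all genes). Bckdhb was at 3.96, 6.82, 4.39, 7.78, 5.63 and 7.37 TPM in knockouts with dapagliflozin and at 2.38, 2.96, 5.57, 5.66 and 2.86 TPM in knockouts with vehicle. In wild types it was at 1.47, 6.0, 4.01 and 3.35 TPM with dapagliflozin and at 4.44, 6.45, 7.19, 7.25 and 5.32 TPM with vehicle. The difference between the genotypes' drug responses was 1.22 ± 0.37 for Bckdhb (limma, adjusted p = 0.999). That test called 0 of 39 (0% of all genes), with 4 higher at an unadjusted p under 0.05 (2.66% of all genes), namely Bckdhb, Hgd, Aass and Hibch.

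Whether dapagliflozin acted differently in Akita than in non-diabetic tubules was tested as an interaction. Averaged over genotypes, all 39 values were positive at a median of 0.32, beside 0.27 over all genes, of which 85% were positive. None of the 39 was called (0% of all genes), and 9 had an unadjusted p under 0.05 (14.4% of all genes were positive at that level). With median-of-ratios scaling the median over the 39 was -0.02. Within wild types Aass had an interaction of 1.15 ± 0.33 (limma, adjusted p = 0.272) and Hgd of 0.95 ± 0.31 (adjusted p = 0.319), with 0 of 39 called (0% of all genes) and 10 positive at an unadjusted p under 0.05 (10.9% of all genes). Within knockouts 0 were called (0% of all genes) and 0 had an unadjusted p under 0.05.

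No enzyme was called between Sglt1 knockouts and wild types. Averaged over treatments and disease, 34 of 39 were higher in knockouts at a median of 0.08, beside 0.07 over all genes, but with median-of-ratios scaling the median was -0.0046. When 1 library was left out it ran from 0.0452 to 0.13. Of the 39, 0 were called (0.0235% of all genes) and 0 had an unadjusted p under 0.05. Pccb was at 18.8 to 49.9 TPM (median 29.3) in the 23 knockout libraries and 16.4 to 54.1 TPM (median 24.8) in the 20 wild-type libraries without semaglutide, a difference of 0.21 ± 0.12 (limma, adjusted p = 0.921). Gcsh differed by 0.19 ± 0.10, at a median of 13.4 TPM in knockouts and 11.4 TPM in wild types, and Gldc by 0.18 ± 0.15, at a median of 12.1 TPM in knockouts and 11.1 TPM in wild types. Hibch differed by -0.22 ± 0.17, Bckdk by -0.15 ± 0.14 and Bckdhb by -0.05 ± 0.12.

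Among vehicle-treated non-diabetic mice, Hibch was at 1.84, 5.91, 2.56, 6.57 and 7.30 TPM in knockouts and at 15.8, 8.34, 9.85, 7.94 and 7.17 TPM in wild types. All 5 knockout libraries lay below the wild-type median, with an overlap of 1 library, for a difference of -0.97 ± 0.35 (limma, adjusted p = 0.981). Hibch and Bckdhb (-0.59 ± 0.26) were the 2 enzymes lower at an unadjusted p under 0.05 (1.01% of all genes), and 0 of 39 were called (0.0235% of all genes). In vehicle-treated Akita mice Hibch differed between knockouts and wild types by -0.09 ± 0.32, with 0 of 39 called (0.0157% of all genes) and 0 at an unadjusted p under 0.05.

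**Figure D5:**
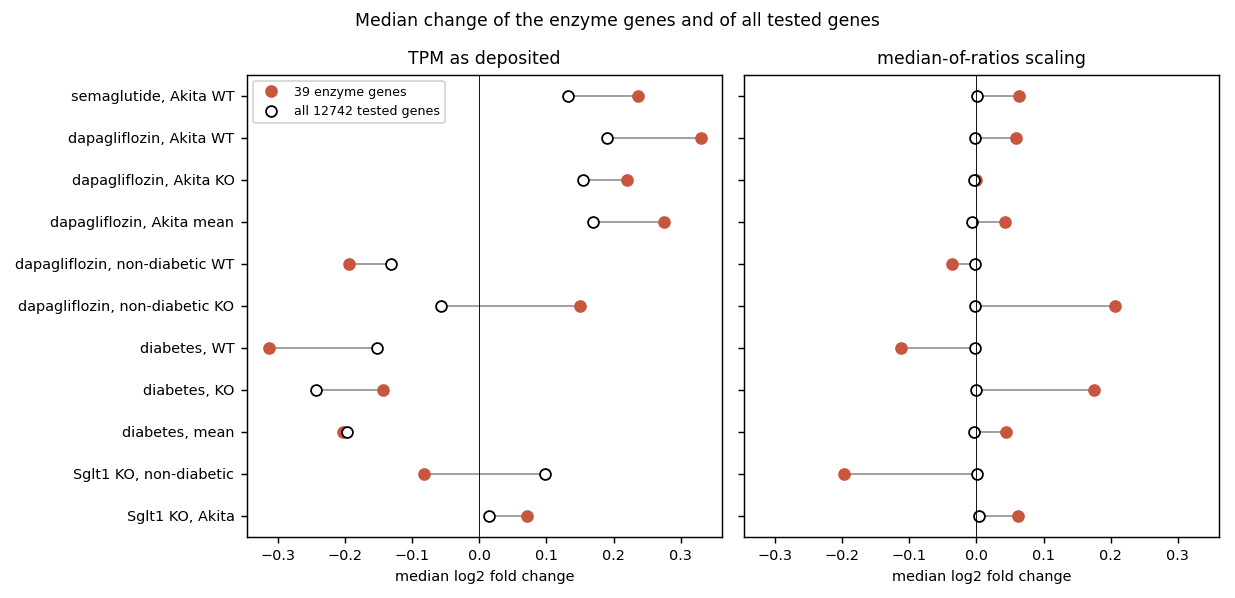
Median log2 fold change of the 39 tested enzyme genes (filled) and of all 12742 tested genes (open) in 11 comparisons, with TPM as deposited (left) and after median-of-ratios scaling (right). With TPM as deposited the enzymes lie on the same side of 0 as all genes except for dapagliflozin in non-diabetic knockouts and Sglt1 loss in non-diabetic mice, and after scaling all genes lie near 0.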

How the data were processed

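RNA from laser-captured early proximal tubules of 9 groups of mice was measured as total RNA-seq made from 0.5 ng of RNA per sample with a strand-keeping low-input kit, per the labels' protocols. The recorded minimum for DV200, a measure of RNA integrity, was 30%. The authors deposited 1 table of TPM values for 55487 genes in 48 libraries. Per the submitters' processing notes, the tools included Salmon and MultiQC 1.8, and the build was GRCm38. For Salmon's version, the annotation release and the strand setting, the value is not given in the sources used here. The deposited table carries a remark that outliers were taken out, without stating how, and 6 of 54 labelled samples were not analysed here. TPM keeps no read depth, so depth is unknown and no counting interval is given.

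Columns were matched to samples by title. Genes with TPM of at least 1 in at least 5 libraries, 12742 in all, were analysed as log2(TPM + 1) with limma 3.58.1 (R 4.3.3, trend and robust) in a model with 1 mean per group and 39 residual degrees of freedom. Benjamini-Hochberg adjustment ran over all tested genes within each comparison, with a threshold of 0.05. Means over genotypes weighted each genotype equally. The script was tested on simulated data. Alternatives were other pseudocounts, filters, scalings, covariates and fits, and leaving out libraries. No 2 libraries held identical values. The enzymes, the related and marker lists and the rule for named genes, which takes the largest changes in each direction per main comparison, were chosen with earlier results of these data known. Promoters came from RefSeq (GRCm38.p6) and gene positions from GENCODE on GRCm38.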

Additional observations from a re-analysis of the deposited data

Results flagged for a closer look

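In 13 of 171 combinations of a named gene and a group, 1 library lay far from the rest of its group by Dixon's criterion. Chance alone meets it in about 1 in 20 where values are normally distributed. These values are unlogged TPM and the genes share libraries, so the count cannot be set against that rate. Pccb was at 54.1 TPM in Akita wild-type dapagliflozin sample 4, where the nearest library of the group was at 25.7 TPM, and at 49.9 TPM in Akita knockout dapagliflozin sample 5 (nearest 27.6 TPM). That knockout sample also stood apart for Aldh7a1 at 97.7 TPM (nearest 53.6 TPM) and Bckdhb at 7.35 TPM (nearest 4.70 TPM). Bckdhb reached 11.5 TPM in Akita knockout vehicle sample 3 (nearest 3.94 TPM). Prodh was at 177 TPM in Akita wild-type dapagliflozin sample 6 (nearest 109 TPM) and at 172 TPM in non-diabetic wild-type vehicle sample 3 (nearest 127 TPM), which also held 80.4 TPM of Prodh2 (nearest 41.2 TPM). Non-diabetic wild-type dapagliflozin sample 3 stood apart for Aldh7a1 at 67.2 TPM (nearest 25.4 TPM) and Gcsh at 16.8 TPM (nearest 10.4 TPM). Mccc1 was at 37.4 TPM in Akita knockout dapagliflozin sample 3 (nearest 22.6 TPM), Shmt2 at 61.7 TPM in non-diabetic knockout dapagliflozin sample 4 (nearest 40.9 TPM), and Hpd at 12.3 TPM in Akita wild-type vehicle sample 3 (nearest 8.56 TPM). All 13 were high values. Each library named here also had a nuclear protein-coding share at or near the top of its group. That share ran from 9.53% in Akita wild-type vehicle sample 3 to 14.1% in Akita knockout dapagliflozin sample 5. With unchanged proportions among such genes, a high share raises the TPM of each. The part of the share in these values was not tested.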

How the results depend on the processing

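For dapagliflozin in Akita mice averaged over genotypes, 2 enzymes were called with TPM as deposited, and also with a pseudocount of 0.1 and without trend or robust fitting. The number called was 0 with no filter, median-of-ratios scaling, rescaling to nuclear protein-coding genes, quantile normalization, only the groups compared, capture number or genes detected as a covariate, and without the 4 libraries of fewest genes; it was 4 with the stricter filter (Aass, Aldh6a1, Haao and Hgd). It ran from 0 to 6 when 1 library was left out, with 6 without knockout vehicle sample 3. Over the same fits the number of all tested genes called ran from 9 to 378, against 104 with every library. With median-of-ratios scaling 54 of all tested genes were called. The number of enzymes called for diabetes averaged over genotypes ran from 0 to 1. With 1 library left out, that of all tested genes ran from 11 to 313, against 71 with every library. The median for diabetes in knockouts was 0.18, 0.16 and 0.16 with median-of-ratios scaling, nuclear rescaling and genes detected as a covariate, against -0.14 as deposited. The median interaction of dapagliflozin with diabetes was -0.0175 with median-of-ratios scaling, -0.0255 with nuclear rescaling and -0.0089 with quantile normalization, against 0.32; the cause was not tested. With median-of-ratios scaling the medians for dapagliflozin in non-diabetic mice (0.07), Sglt1 loss (-0.0046) and diabetes (0.04), each averaged, also turned sign. So did that for dapagliflozin in Akita knockouts (-0.0009, against 0.22 as deposited). With 1 library left out, the median for dapagliflozin in non-diabetic mice ran from -0.15 to 0.0094, and a sign turned for Shmt1 (-0.16 to 0.0174) and Bcat2 (-0.20 to 0.0108) with dapagliflozin in Akita, Hpd with dapagliflozin in non-diabetic mice (-0.0499 to 0.25), Aldh7a1 (-0.21 to 0.0096), Bcat2 (-0.21 to 0.17) and Shmt2 (-0.11 to 0.11) with semaglutide, and Bckdhb with Sglt1 loss (-0.12 to 0.0062). No paired analysis was possible because the labels' replicate numbers only name samples and tie none across groups. TPM gives no depth, so what depth limits is unknown.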
